A study of Mus musculus with 6 samples.

Results

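Tdpoz, Tcstv and Usp17l are small mouse gene families that lie in clusters of similar copies and are transcribed at the 2-cell stage. Examined were 8 of their copies, Tdpoz1, Tdpoz2, Tdpoz3, Tdpoz4, Tcstv1, Tcstv3, Usp17la and Usp17lb, together with Sp110 and Gm8300, which belong to none of the 3 families. These 10 genes were chosen by symbol among 48967 genes with a summed count, and all 10 passed the filter on low counts that left 16020 genes for testing. Tdpoz proteins pair a TRAF domain with a POZ domain and resemble Spop, an adaptor of a ubiquitin ligase. Tcstv genes are known as 2-cell-specific transcripts and have been linked to telomere length in embryonic stem cells, Usp17l genes encode deubiquitinating enzymes of the DUB family, and Sp110 encodes a nuclear body protein related to Sp100 and Sp140.

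The embryos were wild type and came from F1 (C57Bl/10 X CBA/H) mice. Control zygotes were only cultured, in KSOM free of fatty acids, from 0.5 to 2.0 days post coitum according to the labels. The study instead times the collection to a day after delipidation, a shorter span than the labelled culture. Labels and study both give 2-cell embryos as the stage sequenced, but their exact age is uncertain, which bears on genes known for brief transcription at the 2-cell stage. Zygotes of the delipidated group were centrifuged in cytochalasin B and a hyperosmotic sucrose medium, the zona pellucida was opened with a laser and the lipid droplets were aspirated before the same culture. Removal of lipid and the handling that goes with it therefore cannot be told apart. Each group had 3 libraries of total RNA, each from a pool of 3 embryos. The SDs below are spreads between pools, and those over all 6 libraries include any difference between the groups. The SEs of log2 fold changes come from the edgeR fit, in which the variability of a gene is moderated by that of the other tested genes. Per the study, embryos of all donor females were mixed before allocation, so these errors hold no spread between collections. The deposited values are raw counts for each exonic part, which is a stretch of exon listed once per gene, and the parts of a gene were added up. Counts assigned to genes were 12164963, 16165958 and 12980787 in control replicates 1 to 3, and 20059460, 16332103 and 14683741 in delipidated replicates 1 to 3. Levels are given as CPM, the counts of a gene scaled to library size with TMM factors.

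Delipidated replicate 1 stood apart in the number of genes detected. It had a count for 17091 genes, against 19408 and 20158 in the other delipidated libraries and 20582 to 22855 in the controls, although it held the most counts. Of the 16020 tested genes, 1475 were at 0 in it and 320 to 663 in the other libraries. Control replicate 2 stood apart in the level of the 10 genes. It held the lowest CPM of 6 of the 10 genes, whereas 15.6% of all tested genes were lowest there. All 10 were below their own mean over the libraries in it, with a median deviation of -0.85 on the log2 scale and of 0.04 over all tested genes.

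Per kb of exonic parts, the 10 genes differed widely in level. Usp17lb had the highest mean, 77.7 ± 24.2 CPM per kb (SD, n = 6 libraries). Sp110 followed at 44.2 ± 13.3 and Tcstv3 at 39.6 ± 9.28 CPM per kb, which lay within each other's spread. Tdpoz4 was at 20.1 ± 12.2 and Tdpoz1 at 19.6 ± 8.88 CPM per kb. Tdpoz2, Tcstv1 and Gm8300 had means of 13.09, 12.99 and 10.26 CPM per kb, and neighbours among these 5 genes did not differ beyond their spread. Tdpoz3, at 6.86 ± 3.00, and Usp17la, at 4.46 ± 4.51 CPM per kb, were the lowest. Among the tested genes, 96.2% lay below the mean of Usp17lb and 55.2% below that of Usp17la on this scale. The order depends on which parts are used, which changes both the counts and the length. For Usp17lb the part with the most counts held 51.6% of its counts. With the part that holds the most counts, per kb of that part, Usp17lb was at 45.5, Sp110 at 304.9 and Tcstv1 at 19.4 CPM per kb.

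**Figure D1:**
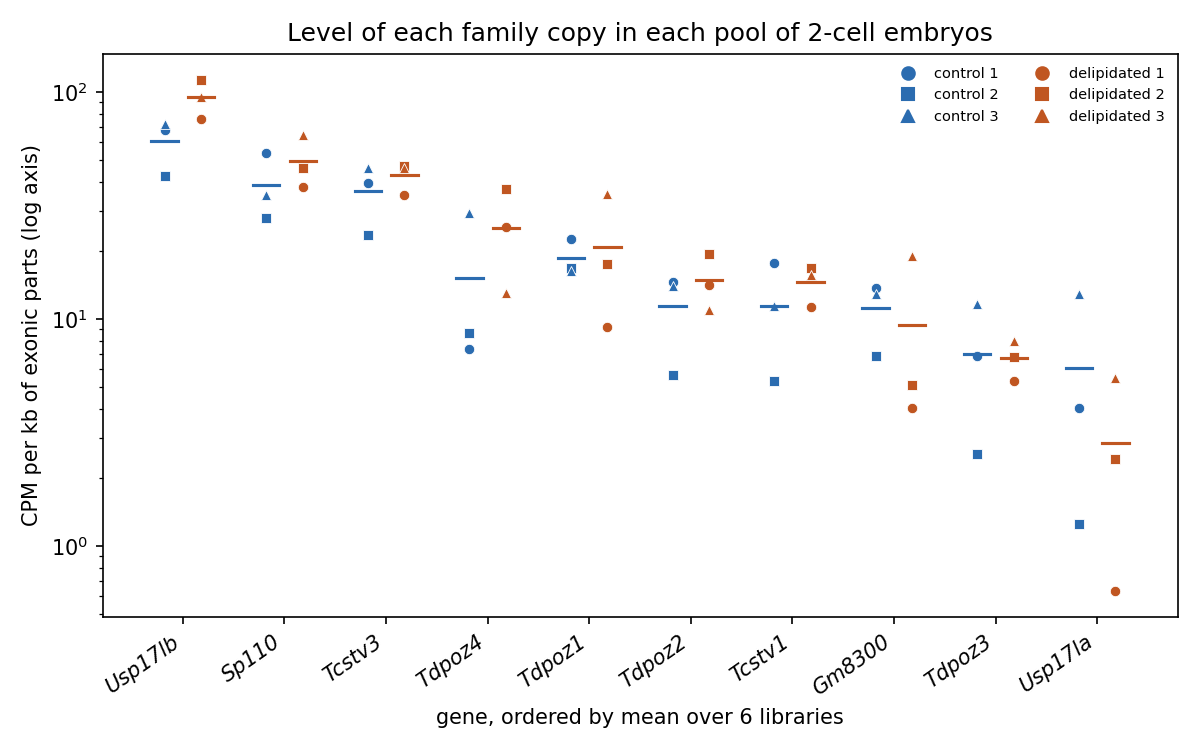
Level of each of the 10 genes in CPM per kb of exonic parts (log axis), with control libraries in blue, delipidated libraries in orange, a symbol for each replicate and a line at each group mean. Usp17lb has the highest mean, 77.7 CPM per kb, and Usp17la the lowest, 4.46 CPM per kb.

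The Tdpoz copies lie on chromosome 3 (GRCm38), with Tdpoz2 (ENSMUSG00000103362) at chr3:93651542-93652686 and Tdpoz1 (ENSMUSG00000094084) at chr3:93669333-93676310 on the minus strand, and Tdpoz4 (ENSMUSG00000060256) at chr3:93796398-93797510 and Tdpoz3 (ENSMUSG00000058005) at chr3:93826020-93827117 on the plus strand. Tdpoz1 had 53.1, 39.4 and 38.4 CPM in control replicates 1 to 3 and 21.6, 41.2 and 83.6 CPM in delipidated replicates 1 to 3. Both the lowest and the highest library were delipidated. Its log2 fold change of delipidated over control was 0.16 ± 0.44 (SE), and it ran from -0.48 without delipidated replicate 3 to 0.52 without delipidated replicate 1, and was -0.0917 with limma-voom. Tdpoz4 had 8.18, 9.62 and 32.5 CPM in the controls and 28.1, 41.4 and 14.5 CPM in the delipidated libraries. The groups overlapped, since control replicate 3 lay above 2 of the delipidated libraries. The log2 fold change of Tdpoz4 was 0.74 ± 0.58 (SE), or between 0.35 without delipidated replicate 2 and 1.65 without control replicate 3 as libraries were left out in turn, with an exact two-sided permutation p of 0.3 over the 6 libraries. Tdpoz2 ranged from 6.47 CPM in control replicate 2 to 22.2 CPM in delipidated replicate 2, and Tdpoz3 from 2.78 CPM in control replicate 2 to 12.8 CPM in control replicate 3. Their log2 fold changes were 0.38 ± 0.49 and -0.06 ± 0.65 (SE). As libraries were left out in turn, that of Tdpoz2 ran from 0.06 without control replicate 2 to 0.61 without control replicate 1, and that of Tdpoz3 from -0.46 without control replicate 2 to 0.52 without control replicate 3. With limma-voom that of Tdpoz3 was 0.22.

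The share of each copy in the Tdpoz sum was not constant. These shares are of CPM and take no account of length. Per kb the means of Tdpoz1 and Tdpoz4 were 19.6 and 20.1 CPM. Tdpoz1 made up 62.2%, 67.6% and 38.5% of the summed CPM of the 4 copies in the controls, and 30.1%, 36.7% and 70.1% in the delipidated libraries. Tdpoz4 took 9.58%, 16.5% and 32.6% in the controls and 39.2%, 36.9% and 12.1% in the delipidated libraries. Shares of 1 sum oppose each other by construction. In CPM the highest Tdpoz4 value, in delipidated replicate 2, went with 41.2 CPM of Tdpoz1. The highest Tdpoz1 value, 83.6 CPM in delipidated replicate 3, went with 14.5 CPM of Tdpoz4. The correlation of the 2 genes is given below. The sum itself was 81.1 ± 21.01 CPM in controls and 101.1 ± 25.6 CPM in delipidated embryos (SD, n = 3).

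The coding sequences of the Tdpoz copies are alike but not identical. In GENCODE M21, identity over global alignments ranged from 77.8% between Tdpoz2 and Tdpoz4 to 88.6% between Tdpoz1 and Tdpoz3. The first 60 coding bases are shown because unique reads alone were counted and these differences separate the copies, with bases that differ from Tdpoz1 at the same position in capitals. There are 8 such bases in Tdpoz2, 9 in Tdpoz3 and 17 in Tdpoz4.
Tdpoz1: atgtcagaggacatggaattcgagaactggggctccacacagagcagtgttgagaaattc
Tdpoz2: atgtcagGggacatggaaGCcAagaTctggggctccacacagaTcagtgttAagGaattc
Tdpoz3: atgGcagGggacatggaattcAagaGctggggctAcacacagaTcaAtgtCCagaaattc
Tdpoz4: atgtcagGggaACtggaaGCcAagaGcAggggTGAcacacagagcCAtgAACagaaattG
Among all windows of 100 bases in its transcripts, 46.7% of those of Tdpoz3 also occur in another gene, the pseudogene Gm4982, and 23.8% of those of Tdpoz1, 22.1% of Tdpoz2 and 11.6% of Tdpoz4 are shared with other genes. With windows of 50 bases the shares ran from 41.2% for Tdpoz4 to 66.2% for Tdpoz3. Levels of these copies are uncertain, since reads that lie wholly in a shared stretch match more than 1 place. By the study's methods the reads were paired and longer than either window, and shares at that length were not computed.

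The Tcstv genes lie on chromosome 13, Tcstv1 (ENSMUSG00000096284) at chr13:119893388-119894785 on the minus strand and Tcstv3 (ENSMUSG00000095821) on the plus strand, counted in a single part of 510 bases at chr13:120317567-120318076. Tcstv1 had 24.6, 7.44 and 15.9 CPM in the controls and 15.8, 23.5 and 21.7 CPM in the delipidated libraries. Tcstv3 had 20.3, 11.9 and 23.6 CPM in the controls and 17.9, 24.0 and 23.6 CPM in the delipidated libraries. Control replicate 2 was the lowest library for both genes, and the groups overlapped for both. The log2 fold changes were 0.35 ± 0.48 for Tcstv1 and 0.23 ± 0.41 for Tcstv3 (SE), and 0.01 and -0.01 without control replicate 2. Without control replicate 1 that of Tcstv1 was 0.82, and without control replicate 3 that of Tcstv3 was 0.44. With limma-voom that of Tcstv1 was 0.54. Tcstv1 made up between 38.4% and 54.8% of the summed CPM of the pair. That share takes no account of length, and per kb the means were 12.99 CPM for Tcstv1 and 39.6 CPM for Tcstv3. Their coding sequences are 93.6% identical, and the first 60 coding bases have 0 differences:
Tcstv1: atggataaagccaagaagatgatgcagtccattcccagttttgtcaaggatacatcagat
Tcstv3: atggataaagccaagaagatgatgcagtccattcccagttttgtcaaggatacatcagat
Even so, 3.58% of the windows of 100 bases of Tcstv1 and 7.79% of those of Tcstv3 were shared with another gene. Of the windows of 50 bases, 209 of 1397 of Tcstv1 and 229 of 730 of Tcstv3 were shared.

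Usp17la (ENSMUSG00000054568) and Usp17lb (ENSMUSG00000062369) are neighbours on chromosome 7, at chr7:104857009-104862667 on the plus strand and chr7:104840257-104842603 on the minus strand. Usp17lb had 105.5, 66.3 and 113.0 CPM in the controls and 118.6, 176.5 and 148.0 CPM in the delipidated libraries. It was the only one of the 10 genes whose groups did not overlap, being higher in every delipidated library, and over all tested genes the share without overlap and with delipidated higher was 3.81%. The log2 fold change was 0.64 ± 0.27 (SE). The exact two-sided permutation p was 0.1, the smallest that 3 against 3 libraries allow, and the edgeR p was 0.036 before and 1.0 after Benjamini-Hochberg adjustment over all 16020 genes. The separation depends on how the parts are combined. In the largest part of the gene, of 1376 bases, Usp17lb had 53.2, 36.2 and 63.7 CPM in the controls and 60.1, 94.9 and 67.4 CPM in the delipidated libraries, and the groups overlapped. A part of 55 bases held 32.4% of its counts; a read over a boundary between parts may add to each. Without control replicate 2 the log2 fold change was 0.44.

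Usp17la had 10.7, 3.33 and 34.3 CPM in the controls and 1.68, 6.45 and 14.6 CPM in the delipidated libraries. Its log2 fold change of -1.09 ± 0.87 (SE) rests on control replicate 3, without which it was 0.11, and it was -1.99 without delipidated replicate 3. Usp17lb made up 76.7% to 95.2% of the summed CPM of the pair in the controls and 91.0% to 98.6% in the delipidated libraries. These shares take no account of length, 2656 bases of parts for Usp17la and 1561 for Usp17lb. The pair shares 81.2% of its coding sequence by global alignment. Of the windows of 100 bases, 3.83% of those of Usp17la and 10.3% of those of Usp17lb occur in another gene, and of the windows of 50 bases 20.1% and 21.4%. RefSeq promoters (GRCm38.p6) were listed for 5 of the 10 genes, each of 300 bases around the annotated start. The promoters of the Usp17l pair are shown because these neighbours differ most in level within a family, with matches to TATAAA and CCAAT on either strand in capitals. The first spans chr7:104856766-104857065 on the plus strand and the second chr7:104842534-104842833 on the minus strand.
Usp17la: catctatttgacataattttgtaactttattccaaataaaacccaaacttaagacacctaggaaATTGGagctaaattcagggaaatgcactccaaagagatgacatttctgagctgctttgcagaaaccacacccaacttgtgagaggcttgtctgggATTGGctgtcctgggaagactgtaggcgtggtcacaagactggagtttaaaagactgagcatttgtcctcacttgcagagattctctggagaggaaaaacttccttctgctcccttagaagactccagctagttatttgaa
Usp17lb: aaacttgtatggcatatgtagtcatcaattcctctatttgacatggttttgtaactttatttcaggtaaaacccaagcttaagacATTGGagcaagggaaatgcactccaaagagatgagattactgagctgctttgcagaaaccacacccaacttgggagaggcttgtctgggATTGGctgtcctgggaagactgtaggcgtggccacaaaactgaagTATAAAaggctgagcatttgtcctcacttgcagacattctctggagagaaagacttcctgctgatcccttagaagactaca
Both hold 2 matches to CCAAT, each on the antisense strand, and Usp17lb alone of the pair holds TATAAA, at base 220 on the sense strand. CCAAT occurs in 37.4% and TATAAA in 13.6% of all 32851 promoters in the table. TAATCC, found in 7.06% of them, was present in the promoter of Tdpoz1 and in both promoters of Sp110, and absent from those of Tdpoz4, Usp17la and Usp17lb.

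Sp110 (ENSMUSG00000070034, chr1:85576899-85598817, minus strand) had 365.2, 189.4 and 238.6 CPM in the controls and 258.8, 311.6 and 436.1 CPM in the delipidated libraries. The highest and lowest values were in delipidated replicate 3 and control replicate 2, and the groups overlapped. Its log2 fold change was 0.34 ± 0.27 (SE), or between 0.11 without delipidated replicate 3 and 0.66 without control replicate 1, and was 0.17 with the part of most counts. Exonic parts with another gene on the other strand held 1.21% of its counts, and 21.9% of the windows of 100 bases and 42.3% of those of 50 bases in its transcripts are shared with other genes, most often the pseudogene Gm16026. Gm8300 (ENSMUSG00000079034, chr12:87514316-87518266, plus strand) had 25.7, 12.9 and 24.1 CPM in the controls and 7.60, 9.58 and 35.5 CPM in the delipidated libraries. Its log2 fold change was -0.25 ± 0.59 (SE), and ran from -1.28 without delipidated replicate 3 to 0.11 without delipidated replicate 1. It was -0.58 with limma-voom and -0.53 with the replicate block. Of its windows 10.8% at 100 bases and 26.6% at 50 bases occur in another gene. Its coding sequence is 98.2% identical to that of Gm5662, an eIF1A-like copy on the same chromosome, by global alignment.

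None of the 10 genes passed an adjusted p under 0.05 with a log2 fold change beyond 1 in edgeR, where the share over all tested genes was 0.0%. At an unadjusted p under 0.05, 1 of the 10 was higher, Usp17lb, against 1.15% of all tested genes, and 0 were lower, against 1.74%. The unadjusted edgeR p of Usp17lb was 0.085 with the part of most counts and 0.054 with the replicate block. It was 0.132 without control replicate 2, 0.145 without delipidated replicate 2 and 0.055 without delipidated replicate 3. As libraries were left out in turn, 0 to 2 of the 10 were higher at this threshold, beside 0.89% to 1.7% of all tested genes, and 0 to 1 lower, beside 1.26% to 3.92%. Sp110 was among the higher without control replicate 1 (edgeR p of 0.037) and Tdpoz4 without control replicate 3 (0.0146), and Gm8300 was the 1 lower, without delipidated replicate 3 (0.035). DESeq2 with no filter on low counts also called 0 of the 10, beside 0.158% of 30967 genes. Of the 10 genes, 0 had groups without overlap and delipidated lower, against 5.05% of all tested genes. The log2 fold change was above 0 for 7 of the 10 genes, with a median of 0.29 beside -0.0007 over all tested genes, and the median was 0.03 without control replicate 2, 0.14 without delipidated replicate 3, 0.46 without delipidated replicate 1 and 0.18 with the part of most counts. Standard errors of the 10 genes ran from 0.27 to 0.87 on the log2 scale, with a median of 0.49.

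Across the 6 pools most pairs of the 10 genes had a positive correlation. Pearson's r of log2(CPM + 1) was above 0 in 40 of the 45 pairs, or 88.9%, with a median of 0.53, beside 50.2% and a median of 0.00275 over all pairs of tested genes. After group means were removed, 41 pairs were above 0 and the median was 0.58. The highest r was 0.92, between Tdpoz3 and Tcstv3, with an exact permutation p of 0.0139, Spearman's rho of 0.66 (exact permutation p of 0.175) and r of 0.85 without the 2 libraries farthest from the median of Tdpoz3. Adjusted over the 45 pairs, the exact p of this r was 0.281 and that of rho 0.656. No pair had an adjusted p under 0.05, and 5 had an exact permutation p under 0.05 before adjustment. Without the 2 libraries farthest from the median of the first gene, the median r over the remaining 4 libraries fell to 0.13 and 14 of 45 pairs changed sign, and control replicate 2 was among those left out in 33 pairs. Leaving out the extremes of a gene narrows its range, which by itself can lower r.

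Tcstv1 and Tcstv3 had an r of 0.87 (exact permutation p of 0.05, adjusted 0.281), with rho of 0.60 (exact permutation p of 0.242, adjusted 0.772), r of 0.60 without the 2 farthest libraries, and r of 0.85 after group means were removed. Usp17la and Usp17lb had an r of 0.24 (exact permutation p of 0.667, adjusted 0.793), with rho of 0.09 (exact permutation p of 0.919, adjusted 0.962), r of 0.61 without the 2 farthest libraries, and r of 0.80 after group means were removed. Tdpoz1 and Tdpoz4 had an r of -0.44 (exact permutation p of 0.412, adjusted 0.640), with rho of -0.37 (exact permutation p of 0.497, adjusted 0.772), r of -0.58 without the 2 farthest libraries, and r of -0.50 after group means were removed. Differences between these correlations were not tested.

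**Figure D2:**
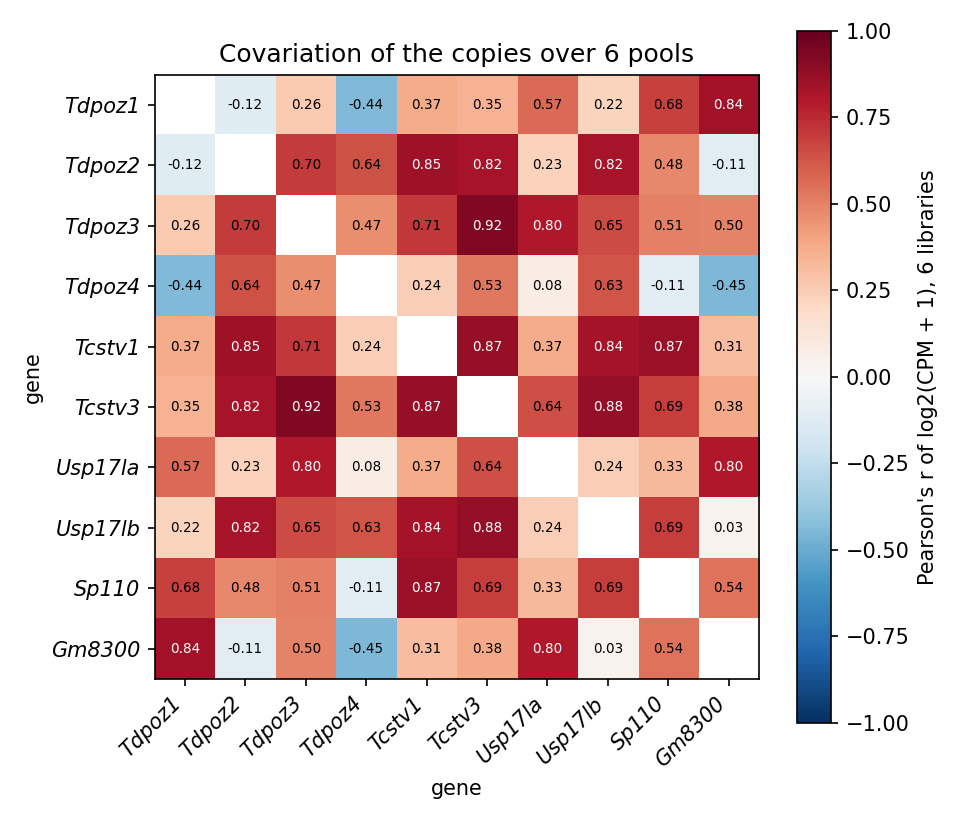
Pearson's r of log2(CPM + 1) over the 6 libraries for each pair of the 10 genes, in red where above 0 and in blue where below 0. Of the 45 pairs 40 are above 0, the highest is 0.92 between Tdpoz3 and Tcstv3, and the lowest is -0.45 between Tdpoz4 and Gm8300.

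Among 8118 other tested genes with a mean of at least 10 CPM, the summed Tdpoz level was most alike to Kif17, a kinesin (r of 0.99 over the 6 libraries), Apol7e (0.98) and Max, a partner of Myc (0.98). The summed Tcstv level was most alike to Myo5a, a myosin (0.98), Pdcd4 (0.98) and Acd, a shelterin subunit (0.98). The summed Usp17l level was most alike to Homer2 (0.99), the mitochondrial tRNA gene mt-Ta (0.98) and Dedd (0.98). These are the highest of 8118 values each and are a description of 6 libraries, with no p.

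Further copies gave 16 genes found of 27 symbols, 14 of them tested, of which 0 were called, 9 had a log2 fold change above 0 and 5 below. Tdpoz8 (Gm4858), also on chromosome 3, was the 1 of these 14 whose groups did not overlap, beside 3.81% of all tested genes with delipidated higher and 5.05% with delipidated lower. It had 36.2, 31.1 and 80.3 CPM in the controls and 100, 88.8 and 82.7 CPM in the delipidated libraries. Its log2 fold change was 0.88 ± 0.36 (SE), with an exact permutation p of 0.1 and an edgeR adjusted p of 1.0, and ran from 0.64 without control replicate 2 to 1.43 without control replicate 3. Tdpoz9 (Gm9125), Spopfm1 (Gm4778) and Spopfm2 (Gm10696) had means of 8.96, 12.0 and 14.2 CPM, and Tdpoz5 and Tdpoz7 (Gm10697) of 0.57 and 0.61 CPM, under the filter. Of the Tcstv relatives, AF067061 had 26.2, 4.596 and 4.713 CPM in the controls and 21.8, 19.97 and 24.6 CPM in the delipidated libraries, and AF067063 had a mean of 74.8 CPM. Gm20767, which was listed with the eIF1A-like copies, lies at chr13:120140246-120155335, and its coding sequence is 92.6% identical to that of Tcstv3 and 51.7% to that of Gm5662. Set with the Tcstv relatives after this was seen, it had a mean of 7.57 CPM and a log2 fold change of 0.57 ± 0.75 (SE), which ran from 0.10 without control replicate 2 to 1.12 without control replicate 3. Usp17lc, Usp17ld and Usp17le had means of 88.2, 19.5 and 13.4 CPM, and Usp17lc was lowest in control replicate 2 at 33.1 CPM. That library was the lowest for 6 of the 14 tested genes of this list, beside 15.6% of all tested genes. It was the highest for 0 of them, beside 17.1%. Spop and Spopl had means of 68.5 and 4.64 CPM, and Sp140, Sp100 and Csprs of 43.7, 1.74 and 1.80 CPM.

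Control replicate 2 was the lowest library for 4 of 8 tested Dux and Zscan4 genes and 4 of 9 tested eIF1A-like copies. It was also the lowest for 10 of 36 further tested activation genes, beside 15.6% of all tested genes in each case. It was the highest for 3 of the 36 and for 0 of the Dux, Zscan4 and eIF1A-like genes, beside 17.1% of all tested genes. The summed CPM of 10 Dux and Zscan4 genes, found for 11 symbols, was 184.6, 82.7 and 178.2 in the controls and 160.8, 135.3 and 173.0 in the delipidated libraries, and that of 10 eIF1A-like copies was 67.6, 21.6 and 62.3 in the controls and 32.9, 37.2 and 91.3 in the delipidated libraries. Of the 30 symbols listed as eIF1A-like 11 were found, Gm20767 among them, so this sum covers some of the copies and leaves Gm20767 out. Of 39 further activation genes, with Usp17ld left out as a Usp17l copy, the sum was 2369, 1889 and 2123 CPM in the controls and 2023, 2126 and 2573 CPM in the delipidated libraries. Of these 3 lists 0 tested genes were called. Duxbl1 had a log2 fold change of 1.70 ± 0.77 (SE), which was 0.96 without delipidated replicate 1, Zscan4e of -0.44 ± 0.50 and Zscan4a, the most abundant, of 0.31 ± 0.37. Gm5039 had 0.44 ± 0.78 and Gm5662, the most abundant eIF1A-like copy in CPM though not per kb, 0.04 ± 0.54 as log2 fold change. Pramef25 had 0.86 ± 0.50, Pramel7 0.43 ± 0.27 and Klf17, the most abundant of the activation genes in CPM though not per kb, -0.04 ± 0.20. Maternal oocyte transcripts had a summed CPM of 8973, 4827 and 7743 in the controls and 5871, 6482 and 11010 in the delipidated libraries. Zbed3 made the largest contribution to this sum. Of 21 tested, 11 were lowest and 1 was highest in control replicate 2, 0 were called, and Npm2, Zp2 and Zbed3 had log2 fold changes of 0.40 ± 0.23, -0.41 ± 0.34 and 0.32 ± 0.34 (SE). Those of Gm5039, Gm5662, Klf17 and Zbed3 changed sign as single libraries were left out. That of Zscan4a ran from 0.0093 without control replicate 2 to 0.61 without control replicate 3, and that of Zscan4e from -0.75 without delipidated replicate 3 to -0.14 without control replicate 1. Pramef25 ran from 0.49 without control replicate 2 to 1.38 without control replicate 1, and Pramel7 from 0.07 without delipidated replicate 1 to 0.61 without delipidated replicate 3. Npm2 ran from 0.19 without delipidated replicate 3 to 0.55 without control replicate 3, and Zp2 from -0.64 without control replicate 2 to -0.13 without control replicate 3. The part of these levels in the values of the 10 genes was not tested.

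Among markers of other cell types Epcam had the highest mean, 71.2 CPM per kb, followed by Amhr2 at 7.36 CPM per kb, a level in the range of those of Tdpoz3 and Usp17la. By the study's methods, cumulus cells were removed from the zygotes with hyaluronidase. The 13 cumulus and granulosa markers summed to 33.2, 32.5 and 49.6 CPM in the controls and 12.1, 32.6 and 15.5 CPM in the delipidated libraries. Amhr2 led these sums on average and Vim led that of control replicate 3, with Ptx3 and Foxl2 at 0 in every library. Tnfaip6 had a mean of 3.50 CPM. Vim had 12.8, 8.77 and 22.8 CPM in the controls and a count of 0 in every delipidated library, with an edgeR adjusted p of 0.0721. Of the 4 tested markers of this list, 2 had a log2 fold change above 0 and 2 below. Those of Tnfaip6, Cyp19a1 and Amhr2 were 0.15 ± 1.02, 0.03 ± 1.47 and -0.27 ± 0.53 (SE), and their groups overlapped. The 8 leukocyte markers summed to 14.9, 10.9 and 10.5 CPM in the controls and 6.67, 8.66 and 6.21 CPM in the delipidated libraries, led by Coro1a and Cd74. The 7 oviduct epithelium markers summed to 82.8, 227.2 and 119.3 CPM in the controls and 165.4, 195.1 and 111.1 CPM in the delipidated libraries, nearly all from Epcam, which embryos also express, and Ovgp1 had a mean of 2.95 CPM. The 7 sperm and spermatid markers summed to at most 5.17 CPM, led by Prm2, with Tnp2 and Smcp at 0. Their part in the levels of the 10 genes was not tested.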

How the data were processed

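Per the labels and the study's methods, pools of 3 embryos were made into stranded total RNA libraries, reads were demultiplexed with bcl2fastq 2.20, trimmed with Trimmomatic 0.36, aligned to mm10 with STAR 2.5.2b, and uniquely mapped reads were counted with featureCounts. The authors deposited raw counts per exonic part, 425461 parts per library. Here the parts of each gene were summed; parts under joined identifiers were given to a gene where GENCODE M21 showed 1 overlapping gene and were otherwise left out. Reads over part boundaries may be counted more than once, and genes on opposite strands cannot be separated. Groups were compared with edgeR 4.0.16 (R 4.3.3; filterByExpr, minimum count 10, minimum total count 15; TMM; quasi-likelihood test; Benjamini-Hochberg adjustment), tested on simulated data, with DESeq2 1.42.0 and limma 3.58.1 as alternatives. Correlations used a pseudocount of 1 CPM and Python 3.11.15. Members and lists were chosen with earlier results of these data known. Genes named were the 10 members, every further copy with a count and the 3 genes most alike to each family. From each other list they were the 2 genes with the smallest p and the most abundant one in CPM. Other names were chosen after their values were seen. So were the transcript windows, the coding stretches and the removal of Gm20767 and Usp17ld from their lists. Protein sequences were not used here.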

Additional observations from a re-analysis of the deposited data

How the results depend on the processing

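Of 150 log2 fold changes of single genes under other settings, 139 kept their direction. Tdpoz1 was at -0.0917 with limma-voom, -0.0287 with the replicate block and -0.48 without delipidated replicate 3. Tdpoz3 was at 0.22 with limma-voom, 0.15 with the replicate block, and from -0.46 to 0.52 as libraries were left out in turn. Gm8300 was at -0.58 with limma-voom and -0.53 with the replicate block, Tcstv1 at 0.54 with limma-voom, and Sp110 at 0.17 and Tdpoz3 at -0.10 with the part of most counts. Leaving out a library gave -0.48 to 0.52 for Tdpoz1, 0.06 to 0.61 for Tdpoz2, 0.35 to 1.65 for Tdpoz4, 0.01 to 0.82 for Tcstv1, -0.0068 to 0.44 for Tcstv3, -1.99 to 0.11 for Usp17la, 0.44 to 0.78 for Usp17lb, 0.11 to 0.66 for Sp110 and -1.28 to 0.11 for Gm8300. The causes were not tested. Genes called over all 16020 tested numbered 0 in edgeR, with 463 at an unadjusted p under 0.05; edgeR with no filter called 30 and DESeq2 with no filter 49, over 30967 genes. Members called numbered 0 in every setting. Members without overlap numbered 1, beside 8.86% of all tested genes, 0 with the part of most counts, beside 8.90%, and 1 to 3 as libraries were left out, beside 15.8% to 21.1%; the 3 without control replicate 1 stand beside 19.4%. The median log2 fold change of the 10 genes lay between 0.03 and 0.46 as libraries were left out and was 0.18 with the part of most counts, and the median r was 0.51 with library totals. With the replicate block 0 genes were called and the median was 0.32, and the unadjusted edgeR p of Usp17lb was 0.054. Deviations of same-numbered libraries correlated at -0.13, 0.11 and 0.07. This cannot decide whether the numbers pair samples, since differently numbered libraries were not compared. The study describes random allocation of pooled embryos and names no pairing. A read may add to several parts, and reads from stretches shared between copies may be lost. With the part of most counts the SE was lower for 9 of the 10 genes. It was lower also for Tdpoz2, 0.39 beside 0.49, which has 1 part and so the same counts in both fits. What lowered the SE was not tested.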
